A study of Mus musculus with 2 samples.

Results

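The genes described here are those whose symbols mark them as chloride, bicarbonate or proton carriers of the solute carrier families Slc4, Slc9, Slc12 and Slc26. Of the 18498 rows of the expression table, 39 carried such a symbol, 10 in Slc4, 11 in Slc9, 8 in Slc12 and 10 in Slc26. The symbols *Slc9a3r1*, *Slc9a3r2* and *Slc4a1ap* match the pattern but belong to 2 scaffold proteins and an adaptor protein, so 36 of the 39 were transporters. Expression had been measured in 1 RNA-sequencing library of the circumvallate papillae (CvP) and 1 of the tongue epithelium without papillae (Epi). Both came from male C57BL/6J mice of 12 to 30 weeks on normal chow, and RNA of at least 20 mice was pooled for each. The CvP is the large papilla at the back of the tongue whose trenches are lined with taste buds, and a dissected papilla also holds the epithelium around the buds. With 1 library per tissue there was no replicate, no p-value could be calculated, and each difference below is between these 2 libraries.

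Cells load, extrude and exchange chloride, bicarbonate and protons with these carriers. Slc12 proteins move chloride together with sodium and potassium, Slc4 proteins carry bicarbonate, Slc9 proteins exchange sodium for protons, and Slc26 proteins exchange chloride, bicarbonate, sulfate and other anions. Together they set the chloride concentration and the pH of a cell, and in taste buds they bear on which way chloride flows when a channel opens and on how a cell recovers from acid.

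The libraries held about 28373653 (CvP) and 27908511 (Epi) mapped reads, estimated from the lowest RPKM values. Over 10363 rows of at least 1 RPKM in both libraries, the median CvP/Epi ratio was 1.31, so ratios near that value are those of a typical gene. Marker genes were read as a check of the labels. Type II taste cell genes summed to 293.36 RPKM in the CvP against 22.77 in the Epi (5 of 6 past 2-fold higher in the CvP, led by *Gnat3*, *Plcb2* and *Trpm5*), type III genes to 90.66 and 0.43 (6 of 6, 4 of them at 0 in the Epi, led by *Pkd1l3*, *Pkd2l1* and *Snap25*), and type I genes to 69.37 and 8.35 (2 of 3, with *Entpd2* and *Kcnj1* higher in the CvP and *Slc1a3* in the Epi). Immune genes, led by *Lyz2*, *Cd68* and *C1qb*, were also higher in the CvP (155.65 and 6.11; 5 of 5). Genes of keratinized epithelium were higher in the Epi (21159.1 and 66813.7, 5 of 5, *Krt13*, *Rptn* and *Lor* among them). Skeletal muscle genes were higher there too (4.47 and 49.74, 6 of 6, *Mylpf*, *Acta1* and *Tnnt3* among them). Salivary gland genes summed to 12.05 and 410.87 RPKM, with 4 of 6 past 2-fold higher in the Epi, *Aqp5* higher in the CvP and *Lipf* and *Muc5b* among the 4. Red blood cell genes summed to 3.34 and 3.45, with *Alas2*, the only one past 1 RPKM, higher in the CvP (1.37 and 0.22 RPKM) and the 2 rows of *Hba-a1* lower there, and nerve and glia genes to 11.6 and 9.32 (0 of 1 past 2-fold, with *Mbp* and *Sox10* among them). In such tissue, fewer cells of a type and less RNA per cell cannot be told apart.

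Most of the expressed members were higher in the CvP, and the highest ratios were those of *Slc9a4*, *Slc9a2*, *Slc9a7*, *Slc4a7* and *Slc4a11*. Of the 39 genes, 24 reached 1 RPKM in the CvP or the Epi, and 15 stayed under 1 in both. Of the 24, 13 were more than 2-fold higher in the CvP, 1 was more than 2-fold higher in the Epi and 10 lay between. Among all 12549 rows past the same minimum, 28.2% were more than 2-fold higher in the CvP and 3.75% more than 2-fold higher in the Epi, against 54.2% and 4.17% of the members. The minimum lets in genes through the library where they are high, so these shares describe the list and do not test it. By the study's own criteria, a CvP RPKM above 10 and a ratio above 3, 2 of the 39 members (5.13%) and 2.35% of all rows passed. These 2 were *Slc12a2* and *Slc12a7*. No member met the reverse criteria, 10 RPKM exceeded in the Epi with a CvP level more than 3-fold lower, which 0.600% of all rows met.

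Read counts were high enough for most of these ratios to be told from 1 by counting error alone. The 95% counting interval of the ratio lay above 1 in 21 of the 24 expressed members (for 2 of them, with no Epi read, as a lower limit), below 1 in *Slc9a3r1* and *Slc26a9*, and held 1 in *Slc4a1ap*. In 19 it lay above the median ratio of 1.31. That count holds for the listed gene lengths. With the longest annotated transcript as length, the lower ends for *Slc9a3* and *Slc26a6* were 1.26 and 1.21, below the median ratio. How many of all rows had such intervals was not counted, so these counts do not set the members apart. The median log2 ratio of the 24, with a pseudocount of 0.1, was 1.07, beside 0.50 over all 12549 rows. By family it was 1.98 for 5 Slc4 genes, 1.48 for 5 Slc12 genes, 1.05 for 10 Slc9 genes and 0.61 for 4 Slc26 genes. Without *Slc4a1ap*, *Slc9a3r1* and *Slc9a3r2* it was 2.54 for Slc4 and 1.53 for Slc9.

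**Figure D1:**
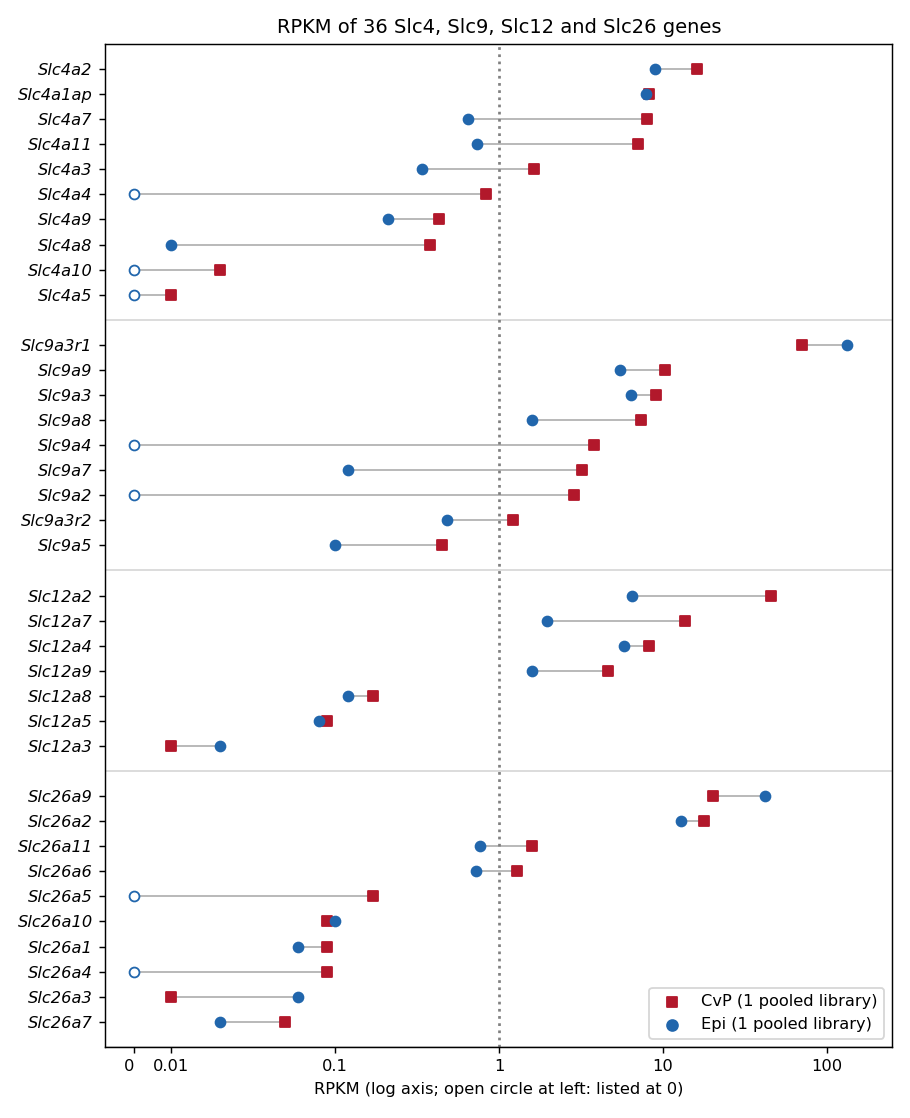
Expression of 36 of the 39 genes in the 2 libraries. The horizontal axis is RPKM on a log scale and each row is a gene, grouped by family, with a point for the CvP, a point for the Epi and a line between them. Among genes of at least 1 RPKM, only *Slc9a3r1* (70.73 and 131.9 RPKM) and *Slc26a9* (20.20 and 41.55) have the Epi point to the right. Below that level *Slc26a3*, *Slc12a3* and *Slc26a10* do too, at 0.10 RPKM or less. *Slc12a2* reaches 45.25 RPKM in the CvP against 6.47.

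The promoters of 6 genes are shown because they include the 4 highest CvP/Epi ratios and both Epi-higher genes among the expressed members for which a promoter entry was at hand. RefSeq promoters on GRCm38.p6 were matched by symbol for 28 members, 15 of them expressed, with 37 starts in all. The 120 bases before the start were *Slc9a7* chrX:20291828-20291947 (− strand), *Slc4a7* chr14:14718664-14718783 (+ strand), *Slc12a7* chr13:73763540-73763659 (+ strand), *Slc4a3* chr1:75546342-75546461 (+ strand), *Slc26a9* chr1:131743902-131744021 (+ strand) and *Slc9a3r1* chr11:115163221-115163340 (+ strand). For *Slc12a7*, which has 2 listed starts, the upstream one was used. Each run is written 5′ to 3′ on the strand of the gene and ends 1 base before the start, and capitals mark the motifs searched on both strands: the GC box GGGCGG, the CCAAT box named for its letters and the TATA box TATAAA, where a match on the other strand shows as the reverse complement.
*Slc9a7*: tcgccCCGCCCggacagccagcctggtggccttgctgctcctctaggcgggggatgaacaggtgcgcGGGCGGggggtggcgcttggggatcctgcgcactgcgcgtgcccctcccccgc
*Slc4a7*: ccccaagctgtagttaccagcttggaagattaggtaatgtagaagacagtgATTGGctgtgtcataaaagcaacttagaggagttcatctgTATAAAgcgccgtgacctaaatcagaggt
*Slc12a7*: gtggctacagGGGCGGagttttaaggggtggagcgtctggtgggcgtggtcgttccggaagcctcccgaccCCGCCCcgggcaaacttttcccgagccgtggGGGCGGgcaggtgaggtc
*Slc4a3*: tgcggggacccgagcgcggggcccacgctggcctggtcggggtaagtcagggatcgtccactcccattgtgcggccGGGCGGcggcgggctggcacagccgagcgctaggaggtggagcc
*Slc26a9*: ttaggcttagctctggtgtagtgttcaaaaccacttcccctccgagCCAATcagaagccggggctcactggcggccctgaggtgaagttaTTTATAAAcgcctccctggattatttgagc
*Slc9a3r1*: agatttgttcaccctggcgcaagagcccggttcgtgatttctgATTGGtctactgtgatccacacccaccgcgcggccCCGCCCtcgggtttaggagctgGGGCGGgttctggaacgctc
The printed runs of *Slc9a7*, *Slc12a7* and *Slc4a3* held GC boxes and neither of the other motifs, while those of *Slc4a7* and *Slc26a9* held a CCAAT box and a TATA box and no GC box. In *Slc26a9* the TATA letters matched on both strands, in overlapping positions. The run of *Slc9a3r1* had 2 GC boxes and a CCAAT box. In the 250 bases before the start, a GC box was found in 45.9% of the 37 member promoters and 32.7% of 32851 mouse promoters, a CCAAT box in 37.8% and 33.8%, and a TATA box in 24.3% and 12.4%. An AP-1 site (TGANTCA) was found in 13.5% and 6.75%, and the octamer ATGCAAAT in 0 of 37 and in 1.60%. Among the expressed members with a promoter entry, only *Slc4a7* and *Slc26a9* held a TATA box in these bases. The median G+C content of these 250 bases was 61.2% for the members and 52.4% for all promoters. Such matches are matches of letters and say nothing of binding.

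Chloride entry together with sodium, called chloride entry below, was represented by a single expressed gene. The exchangers that load chloride for bicarbonate are a separate role here. *Slc12a2* (NKCC1), the sodium-potassium-chloride cotransporter that loads cells with chloride, lies on chromosome 18 from 58038332 to 58106475 of NCBI37/mm9. It had 45.25 RPKM in the CvP, rank 1112 of all rows, and 6.47 RPKM in the Epi, from about 14875 and 2092 reads, a ratio of 6.99 (95% counting interval 6.68 to 7.32). It was the most abundant transporter of the 36 in the CvP. In the Epi that place was held by *Slc26a9*, and *Slc12a2* was also below *Slc26a2* and *Slc4a2*. The sodium-chloride cotransporter *Slc12a3*, the other carrier of this role among the 8 Slc12 rows, was at 0.01 and 0.02 RPKM, and no ratio was taken.

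The potassium-chloride cotransporters, which let chloride out of cells, were higher in the CvP by unequal amounts. *Slc12a7* (KCC4; chromosome 13, 73901145 to 73954190) had 13.54 RPKM in the CvP against 1.95 in the Epi, a ratio of 6.94 (6.39 to 7.55) that overlapped that of *Slc12a2*. *Slc12a4* (KCC1; chromosome 8, 108467493 to 108489939), the housekeeping member, had 8.19 and 5.76 RPKM, a ratio of 1.42 (1.30 to 1.55), whose interval held the median ratio of 1.31. The intervals of these ratios did not overlap. The neuronal *Slc12a5* (KCC2) was at 0.09 and 0.08 RPKM. Exons of *Slc12a4* share 361 bases with *Gm16156* on the other strand, and reads there cannot be assigned. *Slc12a9*, an orphan member of the family, had 4.61 and 1.59 RPKM, a ratio of 2.90 (2.40 to 3.53).

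The order of the Slc12 entry and exit carriers was not the same in the 2 libraries. Chloride loaded by other families is not part of this comparison. In the CvP *Slc12a2* stood at 1.29 times the summed RPKM of the 4 potassium-chloride cotransporters (35.1 RPKM), and in the Epi at 0.513 times their sum (12.61 RPKM). The first quotient was 2.51 times the second, and leaving out *Slc12a7* made it 3.46 times (2.10 and 0.607). This quotient compares levels per length within a library, so a common scaling factor does not touch it. It does depend on the listed lengths, which were over 1.5 times the annotated ones in 11 expressed members. Listed and annotated lengths were 11.586 kb and 6520 bases for *Slc12a2*, 11.905 kb and 5131 bases for *Slc12a7*, and 5.204 kb and 3755 bases for *Slc12a4*. Shares, sums and orders of abundance depend on these lengths too, and none was recomputed with annotated lengths. Of the summed Slc12 RPKM, *Slc12a2* made up 53.1% in the CvP against 31.1% in the Epi. The share of *Slc12a7* was 15.9% and 9.37%, and that of *Slc12a4* 9.62% and 27.7%. The summed family stood at 85.14 RPKM in the CvP against 20.81 in the Epi. Its ratio of 4.09 was the highest of the 4 families.

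**Figure D2:**
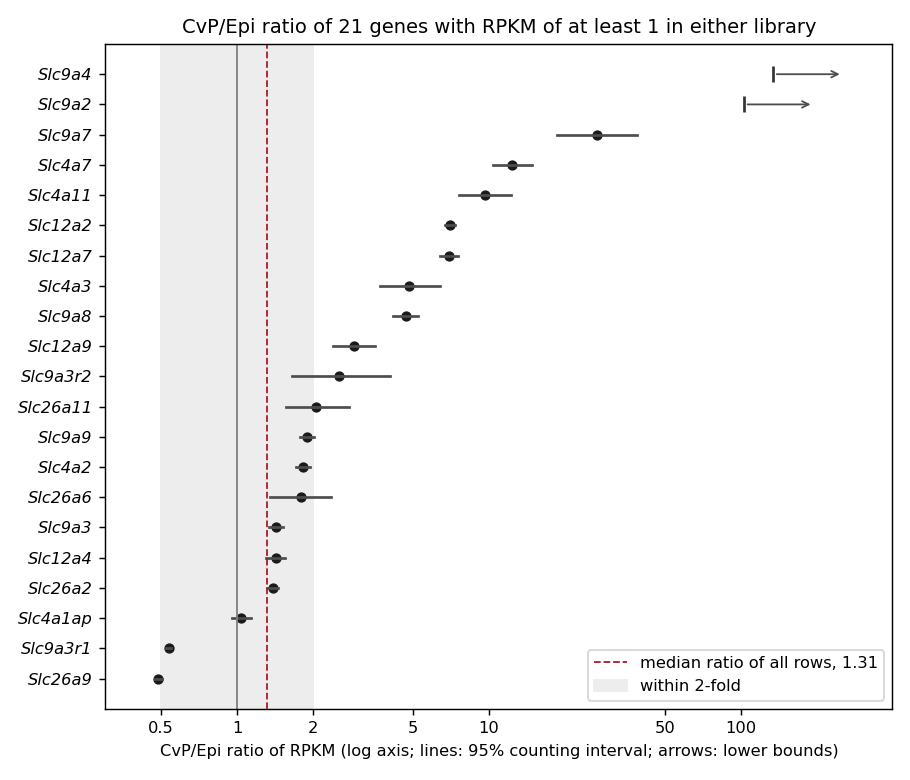
CvP/Epi ratio of 21 of the 24 members that reached 1 RPKM in the CvP or the Epi. The horizontal axis is the ratio on a log scale and bars are 95% exact counting intervals. Reference lines mark a ratio of 1 and the median ratio of 1.31. Arrows mark genes with no Epi read. They start at the CvP level over a floor of 3 reads, which lies above the 95% counting lower limits. *Slc9a4*, *Slc9a2* and *Slc9a7* lie farthest to the right, and *Slc26a9* and *Slc9a3r1* lie to the left of 1.

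Sodium-coupled bicarbonate entry differed most among the carrier roles. *Slc4a7* (NBCn1; chromosome 14, 15535539 to 15632457), an electroneutral sodium-bicarbonate cotransporter that raises the pH of cells, had 8.01 RPKM in the CvP against 0.65 in the Epi, from about 1679 and 134 reads. The ratio was 12.3 (10.3 to 14.8). The electrogenic cotransporter *Slc4a4* (NBCe1) had 0.83 RPKM in the CvP, about 176 reads, and was listed at 0 in the Epi. Against a floor of 3 reads it was at least 57.8-fold higher in the CvP, with a 95% counting lower limit of 46.4. *Slc4a8* (NDCBE), which couples sodium and bicarbonate to chloride export, had 0.38 and 0.01 RPKM, from 127 reads and 3 reads, a ratio of 38.0 (13.9 to 205). The value of 0.01 is rounded to 2 decimals and can stand for 2 to 4 reads. The remaining genes of the role, *Slc4a5* and *Slc4a10*, were at or under 3 reads in both libraries. In sum this role stood at 9.25 RPKM in the CvP against 0.66 in the Epi, a ratio of 14.0. Without *Slc4a7* the sums were 1.24 and 0.01.

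The chloride-bicarbonate exchangers, which remove base from cells and load chloride, were closer to the typical gene. *Slc4a2* (AE2; chromosome 5, 23931050 to 23946765) had 16.21 RPKM in the CvP against 8.89 in the Epi, a ratio of 1.82 (1.71 to 1.95). Its exons share 694 bases with *Fastk* on the other strand. *Slc4a3* (AE3; chromosome 1, 75542841 to 75556006), best known from heart and brain, had 1.63 and 0.34 RPKM, a ratio of 4.79 (3.68 to 6.42). *Slc26a6*, an exchanger of chloride for bicarbonate and oxalate, had 1.29 and 0.72 RPKM, a ratio of 1.79 (1.36 to 2.37), in a row that ends at 108815380 of chromosome 9, past the annotated end of the gene at 108764472. The intervals of *Slc4a2* and *Slc26a6* overlapped, and that of *Slc4a3* lay above both. The epithelial exchangers *Slc26a3* (0.01 and 0.06 RPKM) and *Slc26a4*, pendrin (0.09 and 0), were near the limit of detection.

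*Slc4a11* (chromosome 2, 130509844 to 130523255), which carries protons and water and is known from corneal endothelium, had 7.03 RPKM in the CvP against 0.73 in the Epi, a ratio of 9.63 (7.62 to 12.3) from 772 and 79 reads. *Slc4a9* (AE4), a poorly understood bicarbonate carrier of kidney, had 0.43 and 0.21 RPKM, a ratio of 2.05 (1.16 to 3.87). *Slc4a1ap*, the adaptor protein kanadaptin, had 8.18 and 7.87 RPKM, a ratio of 1.04 (0.954 to 1.13), below the median ratio of 1.31. Its exons share 63 bases with *Supt7l*. Among the 9 Slc4 transporters, *Slc4a2* made up 82.1% of the summed RPKM in the Epi and 46.9% in the CvP. *Slc4a7* made up 6.00% and 23.2%, and *Slc4a11* 6.74% and 20.3%.

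**Figure D3:**
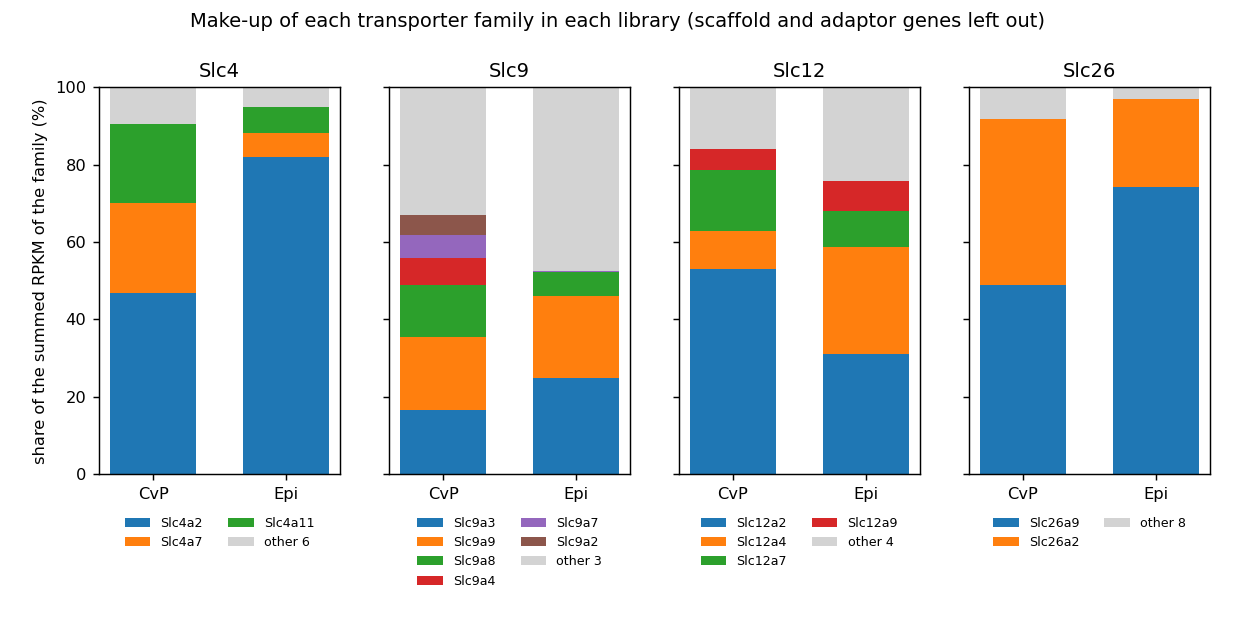
Share of each transporter in the summed RPKM of its family, in percent, for the CvP and the Epi, without the 3 genes that are no transporters. Each bar sums to 100%, each coloured segment is a gene and grey is the rest of the family. *Slc4a2* takes 82.1% of the Slc4 sum in the Epi and 46.9% in the CvP, and *Slc26a9* takes 74.1% and 49.0% of the Slc26 sum.

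Sodium-proton exchangers at the cell surface included *Slc9a3*, read in both libraries, and a pair of neighbouring genes with reads in the CvP library alone. *Slc9a3* (NHE3; chromosome 13, 74258963 to 74303512), the sodium-absorbing exchanger of gut and kidney, had 9.10 and 6.39 RPKM, a ratio of 1.42 (1.33 to 1.52). *Slc9a4* (NHE4), known from stomach and kidney, had 3.78 RPKM in the CvP, about 410 reads, and was listed at 0 in the Epi, at least 134-fold higher in the CvP against the floor of 3 reads, with a 95% counting lower limit of 109. *Slc9a2* (NHE2), an exchanger of gut epithelium, had 2.88 RPKM, about 314 reads, and was also listed at 0, at least 103-fold higher against the same floor, with a lower limit of 83.2. An Epi RPKM of 0 was found in 1.71% of all rows past the minimum (214 of 12549). The 2 genes are neighbours on chromosome 1 of NCBI37/mm9, *Slc9a4* from 40637072 to 40687576 and *Slc9a2* from 40738557 to 40825730, both on the plus strand and 50980 bases apart. *Slc9a5* (NHE5), known from brain, had 0.45 and 0.10 RPKM, a ratio of 4.50 (2.48 to 8.28). The summed markers of all 3 taste cell types and of immune cells were higher in the CvP too, with the type I marker *Slc1a3* lower there, and their part in these values was not tested.

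The exchangers of internal membranes were read in both libraries, with unequal ratios. *Slc9a7* (NHE7; chromosome X, 19682881 to 19868890), of the trans-Golgi network, had 3.21 RPKM in the CvP against 0.12 in the Epi, a ratio of 26.8 (18.6 to 38.9) from about 859 and 32 reads. Its listed length of 9.433 kb was 3.76 times that of the longest annotated transcript (2512 bases), and with the annotated length the interval was 14.1 to 66.0. *Slc9a8* (NHE8; chromosome 2, 167247221 to 167302498), of the Golgi and the apical membrane, had 7.38 and 1.58 RPKM, a ratio of 4.67 (4.17 to 5.24). *Slc9a9* (NHE9; chromosome 9, 94570311 to 95130871), of late endosomes, had 10.27 and 5.43 RPKM, a ratio of 1.89 (1.78 to 2.01). Of the 9 Slc9 transporters, *Slc9a9* made up 18.8% of the sum in the CvP against 21.1% in the Epi, and *Slc9a3* 16.7% and 24.9%. *Slc9a8* made up 13.5% and 6.15%, *Slc9a4* 6.93% and 0%, *Slc9a7* 5.88% and 0.467%, and *Slc9a2* 5.28% and 0%.

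The scaffold proteins that tether NHE3 and other carriers to the cytoskeleton pointed in opposite directions. *Slc9a3r1* (NHERF1; chromosome 11, 115024655 to 115042492) was the most abundant of all 39 genes in both libraries, with 70.73 RPKM in the CvP against 131.9 in the Epi. The ratio was 0.536 (0.524 to 0.549). *Slc9a3r2* (NHERF2) had 1.22 and 0.48 RPKM, a ratio of 2.54 (1.66 to 4.04). Because of *Slc9a3r1*, the sum over all 11 Slc9 genes was lower in the CvP (126.53 and 158.07 RPKM, a ratio of 0.800), while that of the 9 transporters was higher (54.58 and 25.69 RPKM, a ratio of 2.12).

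*Slc26a9* was the only transporter among the expressed members that was more than 2-fold higher in the Epi. This chloride channel and transporter of airway and stomach (chromosome 1, 133640599 to 133666982) had 20.20 RPKM in the CvP against 41.55 in the Epi, from about 5094 and 10307 reads, a ratio of 0.486 (0.470 to 0.503). It made up 74.1% of the summed Slc26 RPKM in the Epi and 49.0% in the CvP. Genes of keratinized epithelium, of salivary gland and of skeletal muscle were higher in the Epi as well, with the sums given above, and their part in this difference was not tested. Its interval reached just past 0.5, so the 2-fold limit was not cleared beyond counting error.

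The sulfate carriers had ratios at or somewhat above that of the typical gene. *Slc26a2* (DTDST), which supplies sulfate for proteoglycans, had 17.67 RPKM in the CvP against 12.78 in the Epi, a ratio of 1.38 (1.32 to 1.45), and made up 42.8% and 22.8% of the Slc26 sum. *Slc26a11*, a lysosomal sulfate carrier that also passes chloride, had 1.59 and 0.77 RPKM, a ratio of 2.06 (1.56 to 2.78). With *Slc26a9* included, the summed Slc26 family stood at 41.25 RPKM in the CvP against 56.06 in the Epi, a ratio of 0.736.

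Beyond the 4 named in the preceding paragraphs (*Slc4a4*, *Slc9a5*, *Slc4a9* and *Slc4a8*), the 11 remaining members under 1 RPKM lay between 0 and 0.17 RPKM in both libraries. Of all 39 members, 7 were listed at 0 in the Epi and 0 members in the CvP. In the whole table, rows at 0 in the Epi began at rank 16292 of 18498, so such zeros are not particular to these genes. How many of all rows were at 0 in the CvP was not counted, so these counts do not set the members apart. Of the members, 4 had at most 3 reads in both libraries, so that a difference was not detectable at this depth.

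Grouped by role, the summed RPKM of the 7 transport roles shown was higher in the CvP, by unequal factors. The ratio of sums was 14.0 for sodium-coupled bicarbonate carriers and 2.78 for potassium-chloride cotransporters (35.1 and 12.61 RPKM), and the chloride entry carriers summed to 45.26 and 6.49 RPKM. It was 2.24 for organelle sodium-proton exchangers (26.91 and 11.99), 2.02 for those of the surface (27.67 and 13.7), 1.92 for chloride-bicarbonate exchangers (19.23 and 10.01) and 1.42 for sulfate carriers (19.35 and 13.61). Leaving out *Slc9a9* gave 2.54 for organelle sodium-proton exchange, leaving out *Slc4a2* gave 2.70 for chloride-bicarbonate exchange, and leaving out *Slc26a2* gave 2.02 for sulfate. Chloride entry and sodium-coupled bicarbonate rested on *Slc12a2* and *Slc4a7*, without which the sums were 0.01 and 0.02 RPKM for the first and 1.24 and 0.01 for the second. Of the members outside these roles, the other Slc26 genes, mainly *Slc26a9*, summed to 20.51 RPKM and 41.67 RPKM, a ratio of 0.492, and the 3 genes that are no transporters to 80.13 and 140.25 RPKM, a ratio of 0.571. The other Slc4 genes summed to 7.46 and 0.94 RPKM, and the other Slc12 genes to 4.78 and 1.71 RPKM.

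**Figure D4:**
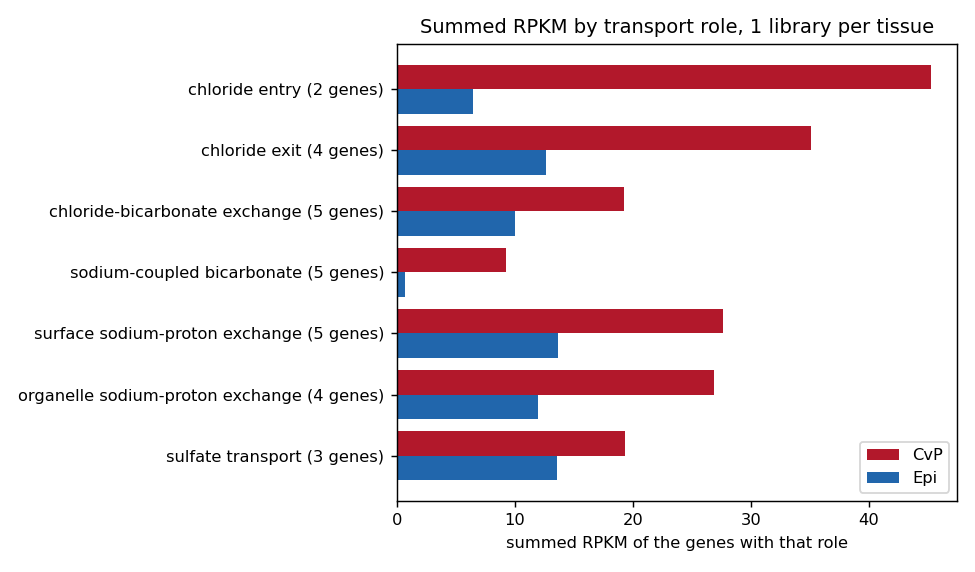
Summed RPKM of the members of 7 transport roles in the CvP and the Epi, as bars from 0. The chloride entry bar reaches 45.26 RPKM in the CvP against 6.49 in the Epi, where chloride exit (12.61 RPKM) stands above entry.

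The genes that regulate or supply these carriers were read from lists of partners. The WNK kinases sense chloride and, through SPAK and OSR1, switch NKCC1 on and potassium-chloride cotransporters off. Of 10 genes listed for this WNK-SPAK cascade 9 were expressed. Of these, 1 was past 2-fold on the CvP side and 0 on the Epi side, against 28.2% and 3.75% of all expressed rows. The median log2 ratio was -0.04, below the 0.50 of those rows. That gene was *Wnk2* (4.05 and 0.84 RPKM, ratio 4.82, 4.34 to 5.36). The next ratios were 1.43 for *Klhl2* and 1.34 for *Cab39l*, and the lowest were 0.662 for *Wnk4*, 0.772 for *Wnk1* and 0.859 for *Oxsr1*, which encodes OSR1. *Stk39*, which encodes SPAK, had 5.64 and 5.80 RPKM.

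Partners of the exchangers had a median log2 ratio of 0.40, below the 0.50 of all expressed rows, with 2 of 8 past 2-fold higher in the CvP and 1 higher in the Epi (28.2% and 3.75% of all expressed rows). *Cftr*, the chloride and bicarbonate channel that works beside Slc26 exchangers, had 6.06 RPKM in the CvP and was listed at 0 in the Epi, at least 387-fold higher against the floor of 3 reads, with a lower limit of 314. The list also holds *Slc9a3r1* and *Slc9a3r2*, described above. *Tesc*, a calcium-binding partner of sodium-proton exchange, had 7.07 and 18.91 RPKM, a ratio of 0.374 (0.315 to 0.443). The third highest ratio was 1.83, for the IP3-receptor-binding protein *Ahcyl1*, and that of its relative *Ahcyl2* was 0.609.

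The carbonic anhydrases, which make bicarbonate and protons from carbon dioxide, had a median log2 ratio of 2.05, and 6 of 8 expressed genes were past 2-fold on the CvP side and 0 on the Epi side, against 28.2% and 3.75% of all expressed rows. *Car7* had 30.62 RPKM in the CvP against 0.09 in the Epi, a ratio of 340 (157 to 808). *Car2* had 13.98 and 0.04 RPKM, a ratio of 350 whose interval was 96.3 to 2889 because it rests on about 2 Epi reads. *Car4*, which is also a marker of type III cells, had 6.24 and 0.03 RPKM, a ratio of 208 (85.0 to 614). *Car7* and *Car2* met the study's criteria. The lowest ratios were 0.819 for *Car13*, 1.36 for *Car12* and 2.46 for *Car15*.

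The sodium-potassium pump provides the sodium gradient that drives NKCC1, the sodium-bicarbonate carriers and the sodium-proton exchangers, and the vacuolar pump (V-ATPase) moves protons. Of 27 expressed pump genes, 8 were past 2-fold on the CvP side and 0 on the Epi side, beside 28.2% and 3.75% of all expressed rows, and the median log2 ratio of 0.26 lay below the 0.50 of all those rows. The 4 that met the study's criteria included the pump subunit *Atp1b1* (35.09 and 0.73 RPKM, ratio 48.1) and the pump regulator *Fxyd6* (87.41 and 4.24 RPKM, ratio 20.6). The V-ATPase subunit *Atp6v0e2*, with a ratio of 3.93, was also among them. *Atp6v1b1*, another V-ATPase subunit, had a ratio of 17.8 (6.30 to 96.5) at 1.07 and 0.06 RPKM, the latter from about 3 reads. The lowest ratios were those of 3 further V-ATPase subunits, 0.550 for *Atp6v1c2*, 0.582 for *Atp6v0a4* and 0.686 for *Atp6v0a2*.

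**Figure D5:**
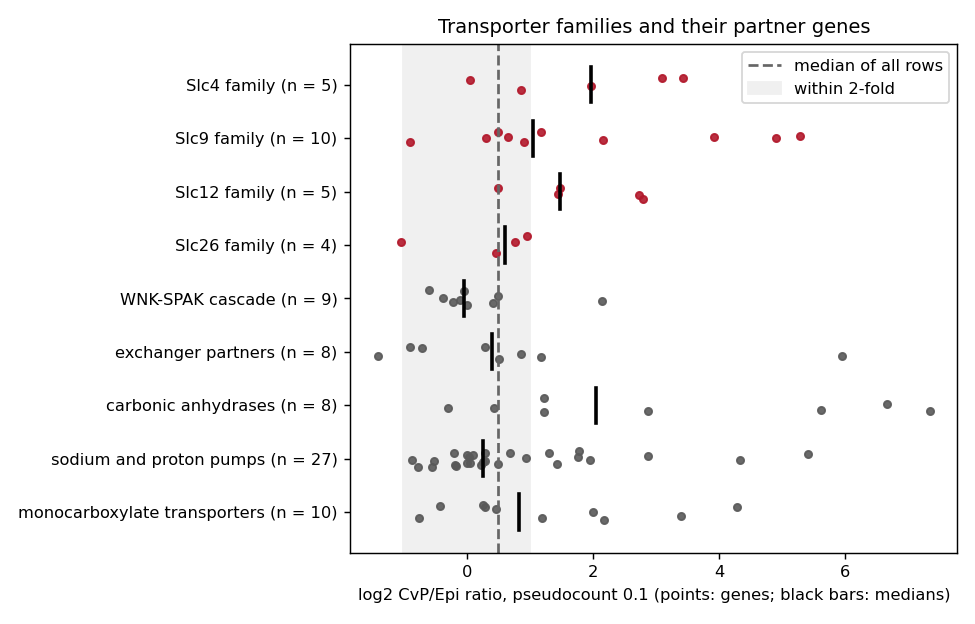
Log2 CvP/Epi ratio, with a pseudocount of 0.1 RPKM, of each expressed gene in the 4 transporter families and the partner lists. Each point is a gene and each bar the median of its list. The medians run from -0.04 for the WNK-SPAK cascade list to 2.05 for the carbonic anhydrases, with Slc4 at 1.98.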

How the data were processed

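The values used were the RPKM values (reads per kilobase of exon, scaled to mapped reads) that the authors deposited for 1 CvP and 1 Epi library. They had made poly(A) libraries, mapped single-end reads of 75 bp to NCBI37/mm9 with Bowtie 0.12.7 (version from the submitters' processing notes) and computed RPKM with ERANGE. The ERANGE options, the treatment of reads with several matches and the use of strand are not given in the sources used here. The deposited ratio column was not used.

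Genes were selected with the symbol pattern Slc4a, Slc9a, Slc12a or Slc26a followed by a digit. The members, gene lists and comparisons were chosen with earlier results of these data known. Ratios are CvP RPKM over Epi RPKM. Reads per gene were estimated as RPKM times the listed length times the number of mapped reads, about 28373653 in the CvP against 27908511 in the Epi, which was taken from the step of 0.352 or 0.358 RPKM in 163 rows of 0.1 kb. Of low rows, 96.4% of 331 and 97.4% of 308 then held whole reads within 0.1. Ratios were given 95% exact (Clopper-Pearson) intervals, and an Epi value of 0 was replaced by a floor of 3 reads per library. Both cover counting error only, since there was 1 library per tissue. The intervals treat each read as independent. Reads were not marked as separate molecules, so the intervals may be too narrow. Medians of log2 ratios were taken over expressed genes, those that reached 1 RPKM in the CvP or the Epi, after adding 0.1 RPKM (a pseudocount that understates differences of low genes). The estimate of mapped reads, the intervals and the direction of ratios were tested on simulated data with independent reads. That test could not cover duplicate reads or wrong gene lengths, and the other steps were not part of it.

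Every member that reached 1 RPKM in the CvP or the Epi is named, except some genes that are not reported here singly but stay in the counts and sums. Of the others, the 4 with the highest RPKM are named. Of each partner list the 3 highest and 3 lowest ratios are named with the genes that met the study's criteria. Of each marker list the 3 genes with the highest RPKM in the CvP are named, also where the list was higher in the Epi. The same exception holds for both. Other names were chosen after their values were seen. Gene positions are on NCBI37/mm9, with exons from GENCODE M1, and promoters are from RefSeq on GRCm38.p6. Alternatives were other scalings, minimums, pseudocounts, fold limits, lengths and choices of members. Calculations used Python 3.11.15, numpy 2.4.6, pandas 2.3.3, scipy 1.17.1 and matplotlib 3.10.9.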

Additional observations from a re-analysis of the deposited data

How the results depend on the processing

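No paired analysis was possible because there was a single library per tissue. Single ratios stayed on their side of 1 under every scaling run except division by the median ratio, where *Slc4a1ap* moved to 0.792 and 1 further ratio also crossed. Annotated in place of listed lengths changed the side of 1 of 0 of 22 intervals, and widened them by at most 2.09 times (*Slc9a7*). The intervals of *Slc9a3* and *Slc26a6* then held the median ratio. This step scaled the estimated reads of both libraries by the same factor. The ratios themselves could not move, and RPKM was not recomputed on annotated exons.

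The 13 members past 2-fold higher in the CvP became 22 with no minimum RPKM, 9 with a minimum of 3 or at 3-fold, 10 with a pseudocount of 1, 11 after division by the median ratio, and between 12 and 18 under the other settings. The 1 higher in the Epi became 2 after division by the median ratio, with no minimum or at 1.5-fold, and 0 at 3-fold or with both libraries rescaled to the same RPKM sum (341141 in the CvP against 411512 in the Epi). The share of past-2-fold members that were higher in the CvP was 92.9% (84.6% after division by the median, 100% at the same sum), beside 88.3%, 73.1% and 93.5% of all rows. After division by the median, 45.8% of the members and 18.9% of all rows were past 2-fold higher in the CvP. In the Epi the shares were 8.33% and 6.94%. At the same sum these shares were 66.7% and 38.9% for the CvP, and 0% and 2.72% for the Epi. Members that met the study's criteria numbered 5 and 7 in place of 2 with a CvP minimum of 5 and 3 RPKM. Shares of all rows were not counted under the other settings, so those counts do not set the members apart.

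The median log2 ratio of the members, 1.07, was 0.80 with a pseudocount of 1, 0.68 after division by the median ratio, 1.34 at the same sum, 0.91 and 0.86 with a minimum of 3 and none, 1.20 without *Slc9a3r1* and *Slc9a3r2* and 1.44 without all 3 genes that are no transporters. For Slc4 it was 0.97 with a pseudocount of 1, 1.58 after division, 2.25 at the same sum, 1.42 with no minimum, 2.54 without *Slc4a1ap* and 2.26 without a pseudocount. For Slc9 it was 0.71, 0.65 and 1.32 under the first 3 of these, 0.78 with a minimum of 3, 1.19 with a minimum of 0.1 or none, and 1.53 without the scaffolds. For Slc12 it was 1.29, 1.09 and 1.75, and 0.97 with no minimum. For Slc26 it was 0.22 after division, 0.88 at the same sum and -0.29 with a minimum of 3, which leaves *Slc26a9* and *Slc26a2*. The settings that left out the 3 genes or the pseudocount were chosen after seeing the data. With 1 library per tissue, intervals cover counting error and not variation between mice, and genes with at most 3 reads in both libraries could not be compared.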

Other observations

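Monocarboxylate transporters, which carry lactate and related acids together with protons, were read beside the carriers of the report. Of 10 expressed genes of that list, 5 were past 2-fold on the CvP side and 0 on the Epi side (28.2% and 3.75% of all expressed rows), with a median log2 ratio of 0.83. *Slc16a11* (MCT11) had 43.72 RPKM in the CvP against 2.16 in the Epi, a ratio of 20.2, and was the only one of the list to meet the study's criteria. *Slc16a10*, a carrier of aromatic amino acids and thyroid hormone in the same family, had a ratio of 15.4. The lactate exporter *Slc16a3* (MCT4) had a ratio of 5.10. The lowest ratios were 0.593 for *Slc16a9*, 0.745 for *Slc16a1* (MCT1) and 1.20 for *Bsg*, the chaperone of MCT1 and MCT4.

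Around *Slc9a4* and *Slc9a2*, the flanking genes of chromosome 1 were low and were also higher in the CvP on both near sides. *Il18rap* had 0.33 RPKM in the CvP against 0.03 in the Epi, *Il18r1* 0.43 and 0.05, and *Mfsd9* 2.81 and 1.12. *Tmem182*, farther downstream, was listed at 0 in the CvP and had 0.10 RPKM in the Epi.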
